A study of Mus musculus with 12 samples.

Results

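The interleukin-1 (IL-1) family genes examined here were 10 of the 52550 genes in the deposited expression tables, chosen by gene symbol, with earlier results of these data known. They comprised the cytokines Il1a, Il1b, Il18 and Il33, the receptor antagonist Il1rn, and the receptor chains Il1r1, Il1r2, Il1rl1, Il1rap and Il18r1. RNA was sequenced from D2A1 and D2.OR, related murine mammary cancer cell lines that came from separate tumors, so that a difference between them is a difference between 2 lines. D2A1 cells proliferate in 3D culture whereas D2.OR cells are used as a model of tumor dormancy. Each line was cultured in 2D on plastic or in 3D on top of growth-factor-reduced Matrigel, with 3 replicates in each of the 4 groups (D2A1 2D, D2A1 3D, D2.OR 2D and D2.OR 3D). Each RNA sample was a pool of 10 wells, and the replicate number also marked the batch. For 2D culture the study's methods describe both a high-glucose medium and the low-serum medium of the 3D assay, which holds horse serum, hydrocortisone, cholera toxin and insulin. For the seeding of the RNA samples they refer to their cell culture section, which names the high-glucose medium for 2D. Where the media differed, the medium and the Matrigel cannot be told apart, and the release of cells from Matrigel applied to the 3D samples alone. The study's reporting form describes its repeats in general as biological, and the p-values measure the spread between these samples.

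IL-1 family cytokines are alarm signals of damaged or stressed cells. IL-1 alpha and IL-1 beta bind the receptor chain IL-1R1, which then recruits the accessory chain IL-1RAP and signals through MyD88 and IRAK kinases to NF-kB and MAP kinases, whereas IL-1Ra (Il1rn) occupies the same receptor without signaling and the decoy receptor IL-1R2 binds the cytokines without signaling. IL-33, a nuclear cytokine of epithelial, endothelial and stromal cells, acts through ST2 (Il1rl1) with the same accessory chain, and IL-18 acts through IL-18R1 with IL-18RAP. In tumors these cytokines are known for drawing in and activating immune cells, and secreted IL-1 is a known component of the senescence-associated secretory phenotype.

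Library totals ranged from 47589613 to 73325057 counts (median 61747090). Levels are given as CPM, counts scaled to the TMM-normalized library size, for comparisons between samples, and as TPM, which also correct for transcript length, for comparisons between genes. Of the 12 leukocyte markers 3 had a mean above 1 CPM in every group, Cd14, Cd68 and S100a8 (highest counts 10737, 1087 and 587), while Ptprc, Adgre1 and Lyz2 had at most 9, 4 and 3 counts and Csf1r at most 90. Of the 8 mast cell and basophil markers Ms4a2, Fcer1a and Tpsb2 had no count in any library, and Mcpt8 had at most 38. Hdc, the histamine-forming enzyme, was at means of 0.754 and 1.004 CPM in D2A1 2D and 3D and of 9.12 and 15.8 CPM in D2.OR. Of the 10 mesenchymal markers 9 were above 1 CPM in every group, at levels that differed between the lines, such as Col3a1 (39.6 CPM in D2A1 2D and 3967 in D2.OR 2D), Col1a1 (4.70 and 172.5) and Zeb1 (44.0 and 7.05). Of the 12 mammary epithelial markers 4 exceeded 1 CPM in D2A1 and 8 in D2.OR. In D2A1 2D Krt18 (186 CPM), Cldn3 (6.97), Elf3 (3.17) and Krt8 (1.21) did so, and Epcam and Cdh1 were at or near 0 (0.0315 and 0.1998 CPM). In D2.OR 2D Krt18 was at 442 CPM, Krt8 at 888, Cdh1 at 206 and Epcam at 4.37, while Cldn3 (5.01) and Elf3 (2.46) were lower in the mean than in D2A1. In bulk RNA, fewer cells of a kind and less RNA per cell cannot be told apart.

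To show the DNA next to the start sites of the members that the results turn on, the 250 bases before the RefSeq start are printed for Il33 (the largest difference between the lines that did not rest on a group at 0), Il1rl1 (the gene of its receptor), Il1rn (the most abundant member in D2.OR) and Il1a (the member called between cultures of D2A1). All 10 members had at least 1 start in the RefSeq table (17 starts, build GRCm38.p6). For Il1rl1 and Il1rn only the most upstream start is printed. Of the starts left out, the downstream one of Il1rl1 and the middle one of Il1rn held no match to any sequence searched. Capitals mark matches on either strand to TATAAA, to the AP-1 site TGAGTCA or to TTGCNNAA, a C/EBP-like sequence.
Il33 upstream start, chr19:29924863-29925112, plus strand: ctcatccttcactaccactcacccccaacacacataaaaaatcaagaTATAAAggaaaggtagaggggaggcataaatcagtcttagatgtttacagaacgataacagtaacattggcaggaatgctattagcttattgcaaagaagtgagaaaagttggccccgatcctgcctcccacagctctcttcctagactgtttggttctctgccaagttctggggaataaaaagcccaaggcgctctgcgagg
Il33 downstream start, chr19:29945540-29945789, plus strand: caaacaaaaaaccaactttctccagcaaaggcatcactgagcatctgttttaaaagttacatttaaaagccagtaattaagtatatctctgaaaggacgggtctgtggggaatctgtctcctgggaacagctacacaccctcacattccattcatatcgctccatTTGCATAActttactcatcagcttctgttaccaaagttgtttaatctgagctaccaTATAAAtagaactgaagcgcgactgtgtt
Il1rl1 upstream start, chr1:40429320-40429569, plus strand: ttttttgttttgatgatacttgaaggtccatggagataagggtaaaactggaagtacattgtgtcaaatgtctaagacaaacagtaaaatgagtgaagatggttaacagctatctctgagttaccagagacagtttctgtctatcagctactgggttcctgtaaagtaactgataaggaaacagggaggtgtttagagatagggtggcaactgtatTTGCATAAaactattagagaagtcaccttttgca
Il1rn upstream start, chr2:24336610-24336859, plus strand: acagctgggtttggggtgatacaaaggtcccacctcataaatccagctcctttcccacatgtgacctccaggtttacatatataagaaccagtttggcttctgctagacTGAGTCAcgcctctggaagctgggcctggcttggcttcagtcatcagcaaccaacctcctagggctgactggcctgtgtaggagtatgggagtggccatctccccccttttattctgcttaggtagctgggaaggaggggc
Il1a, chr2:129309973-129310222, minus strand: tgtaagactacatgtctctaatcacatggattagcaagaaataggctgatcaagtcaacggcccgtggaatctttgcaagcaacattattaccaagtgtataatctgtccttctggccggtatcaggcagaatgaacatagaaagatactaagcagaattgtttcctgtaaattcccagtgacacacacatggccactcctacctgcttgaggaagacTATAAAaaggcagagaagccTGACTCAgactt

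The TATAAA match of Il1a began at position -32 and its AP-1 match at position -12, counted back from the start site, and the downstream start of Il33 had TATAAA at -29. Among all 32851 promoters of the same length, 12.4% held TATAAA, 4.46% held TGAGTCA and 9.56% held TTGCNNAA, against 5, 2 and 3 of the 17 member starts. A kappaB sequence, GGG and TTTCC separated by 2 bases, was searched on both strands too. It was present in 1.41% of all promoters and in 1 of the 17, another start of Il1rn, and a glucocorticoid response sequence, GNACA and TGTNC separated by 3 bases (0.387% of all), was in none. These matches describe letters only, and the motifs do not overlap each other in the windows printed.

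Il1rn was the most abundant member in D2.OR, with 90.8 ± 53.5 TPM in 2D and 123 ± 52.7 TPM in 3D (SD, n = 3). In D2.OR 2D it was followed by Il1rap (52.2 TPM), Il33 (36.0), Il1r1 (16.0), Il18 (15.7) and Il1rl1 (11.4), and each of these overlapped its neighbor in the order over the 3 libraries. In D2.OR 3D Il1rn lay above the next member, Il1rap (38.2 TPM), in all libraries, followed by Il33 (28.4). In D2A1 2D the highest means were those of Il1rn (20.3 TPM), Il1rap (18.1) and Il1r1 (12.3), again with overlapping libraries, and Il33 had a mean of 0.497 TPM. Il1a, Il1b, Il1r2 and Il18r1 stayed below 2 TPM in the mean of every group, so that the agonist transcripts were far less abundant than that of the antagonist. The ratio of Il1rn to Il1a in TPM had a median of 172 (80.8 to 523) in D2.OR 2D, 172 (20.3 to 285) in D2.OR 3D and 31.7 (9.83 to 68.0) in D2A1 3D, and no ratio exists for D2A1 2D, where Il1a had no reads.

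**Figure D1:**
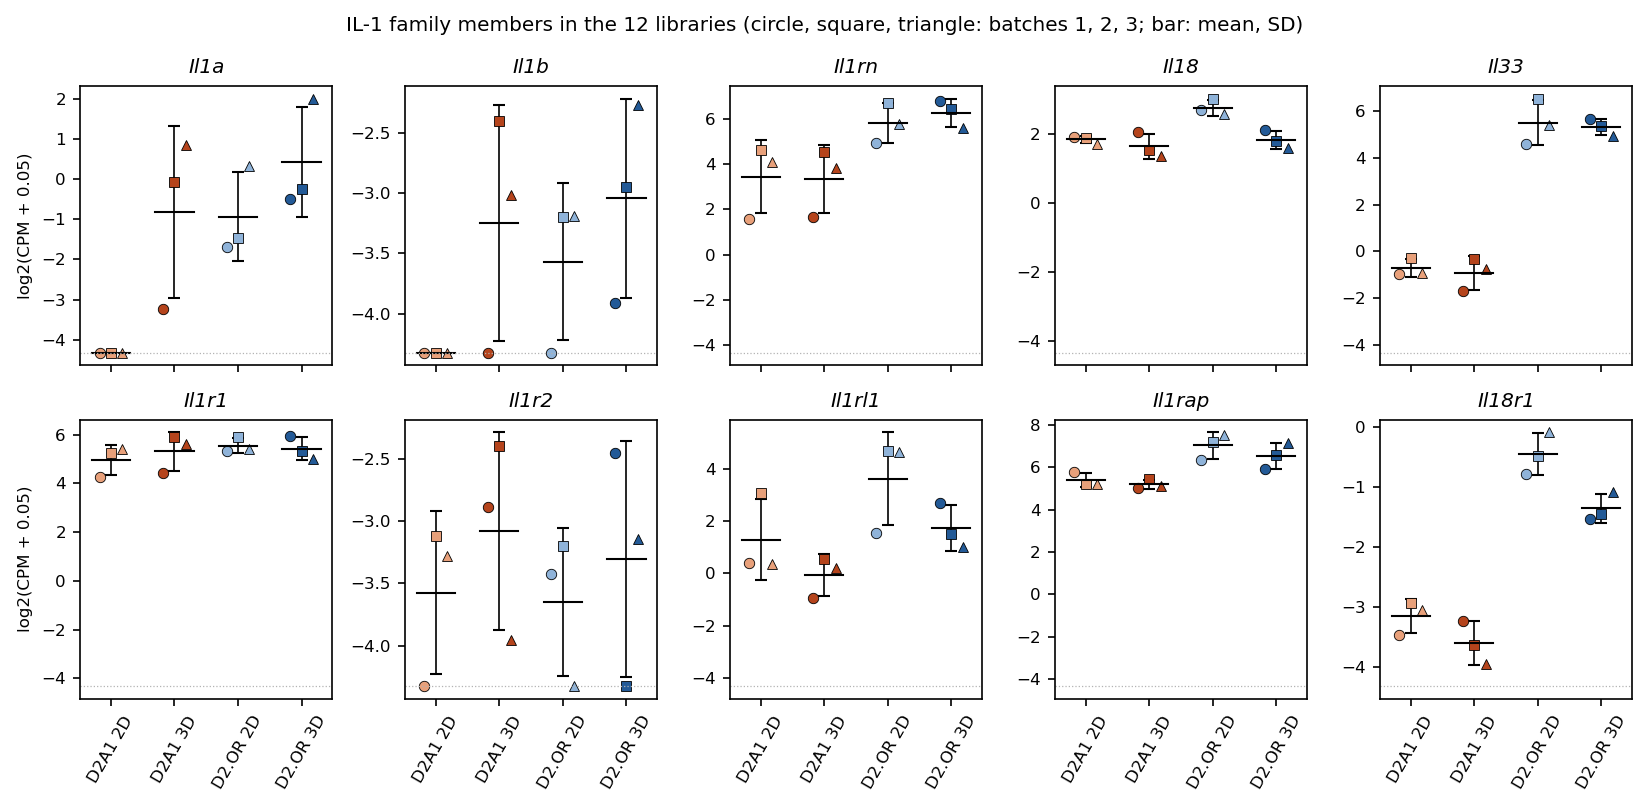
Level of each of the 10 members in the 12 libraries, as log2(CPM + 0.05) on the vertical axis, by group on the horizontal axis. Symbols give the batch, bars the mean and SD of 3 libraries, and the dotted line a count of 0. The 6 D2.OR libraries lie above the 6 D2A1 libraries for Il33 and Il18r1, while Il1b and Il1r2 stay near 0 in every group.

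To determine which members differed between the lines in 2D, D2.OR was compared with D2A1 in one fit of all 12 libraries (edgeR's quasi-likelihood test with Benjamini-Hochberg adjustment over 16823 tested genes). Of the 10 members 8 passed the filter on low counts. Il18r1, with at most 5 counts in any D2A1 library, and Il1a, with 0 in D2A1 2D, would not have passed it without D2.OR libraries. Neither could therefore be called lower in D2.OR in 2D, nor could Il18r1 in 3D. In 2D 7 of these 8 were called higher in D2.OR and 0 lower, where 25.4% of all tested genes were called higher and 24.4% lower (49.8% in either direction). The libraries of the lines did not overlap for 6 of the 8, against 53.2% of all tested genes. The median log2-fold change of the 8 was 2.33, against 0.00 over all genes. Without batch 2 only 3 members were called in 2D, and without batch 3 only 4. In 3D 4 of the 8 were called higher and 0 lower, where 27.7% of all genes were called higher and 26.1% lower (53.8% in either direction), and the median was 1.83. This count of 4 of 8 is near the background share. With at least 10 counts required in every library, which left out Il1a and Il18r1, 5 members were called in 2D and 3 in 3D. The libraries did not overlap for 5 of the 8, against 60.1% of all genes. The summed level of the epithelial markers differed between the lines too, at 152 to 225 CPM in D2A1 2D and 1137 to 1906 CPM in D2.OR 2D, and at 93.7 to 172 CPM and 475 to 838 CPM in 3D. That of the mesenchymal markers overlapped in 2D and was 3526 to 4718 CPM in D2A1 3D and 7011 to 12830 CPM in D2.OR 3D. The part of these markers in the differences of the members was not tested.

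Il33 showed the widest separation between the lines among members detected in all groups. Its levels were 0.465, 0.780 and 0.475 CPM in D2A1 2D and 24.2, 92.3 and 41.9 CPM in D2.OR 2D. In 3D they were 0.255, 0.757 and 0.544 CPM in D2A1, against 50, 40.7 and 30.7 CPM in D2.OR. No D2.OR library overlapped a D2A1 library in either culture. The fitted difference was 85.3-fold in 2D (log2-fold change 6.41 ± 0.46 SE, adjusted p = 8.8e-06) and 85.1-fold in 3D (6.41 ± 0.46, adjusted p = 8.0e-06), by edgeR's quasi-likelihood test, and it passed in all 24 alternatives in each culture. Without batch 1 the log2 difference in 3D was 5.80.

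Il1rl1, which encodes the IL-33 receptor ST2 in a membrane and a soluble form, was measured at 1.27, 8.47 and 1.25 CPM in D2A1 2D and at 2.90, 25.5 and 24.9 CPM in D2.OR 2D. The D2.OR library of batch 1 lay below the D2A1 library of batch 2, so the groups overlapped. The difference of 5.49-fold (log2-fold change 2.46 ± 0.91 SE, edgeR adjusted p = 0.048) passed narrowly, and without the replicate block it was 2.27 (adjusted p = 0.073). It did not pass with library totals alone (2.29, adjusted p = 0.058) or with limma on log2(TPM + 1) (1.69, 0.072) or log2(TPM + 0.1) (2.15, 0.068). Leaving out 1 library ended the call for 8 libraries, namely D2A1 2D replicates 1 and 3, D2A1 3D replicates 1, 2 and 3, D2.OR 2D replicates 2 and 3 and D2.OR 3D replicate 3 (adjusted p of 0.057 to 0.17). The log2 difference was 1.63 or 3.07 when replicate 3 or 1 of D2.OR 2D was left out, and 3.52 when replicate 2 of D2A1 2D was. Without batch 2 it was 3.20 (adjusted p = 0.092) and without batch 3 it was 1.45 (0.30). In 3D the levels were 0.468, 1.42 and 1.103 CPM in D2A1, against 6.48, 2.77 and 1.97 CPM in D2.OR, which did not overlap, and the difference did not pass (2.29 ± 0.95, edgeR adjusted p = 0.068).

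Il1rn, the natural antagonist of IL-1R1, was at 2.95, 24.6 and 17.1 CPM in D2A1 2D and at 30.4, 104 and 54.1 CPM in D2.OR 2D. In 3D its levels were 3.11, 23.1 and 14.2 CPM in D2A1, against 110.1, 85.1 and 47.9 CPM in D2.OR. The batch 1 library was the lowest of D2A1 in both cultures, and the lines did not overlap in either. The rise in D2.OR was 4.57-fold in 2D (2.19 ± 0.66, edgeR adjusted p = 0.021) and 8.84-fold in 3D (3.14 ± 0.71, edgeR adjusted p = 0.0050). The call in 2D was lost without the replicate block (2.07, adjusted p = 0.062) and without any 1 of 4 libraries, namely D2A1 2D replicate 1 (1.72, adjusted p = 0.061) or 2 (2.39, 0.056) and D2.OR 2D replicate 2 (2.10, 0.068) or 3 (2.26, 0.053), as well as without batch 2 (2.34, 0.10) or batch 3 (2.57, 0.061). The call in 3D passed in all 24 alternatives, but its size moved with single libraries. The log2 difference was 1.82 without batch 1 and 1.93 without D2.OR 3D replicate 1, and it was 3.73 without D2.OR 3D replicate 3, 3.77 without batch 2 and 3.80 without batch 3.

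Il1a, the IL-1 agonist that is active as its uncleaved precursor, had 0 counts in every D2A1 2D library, which allows up to 3 counts per library. D2.OR 2D held 18, 16 and 61 counts (0.260, 0.314 and 1.22 CPM), with a mean at least 11.03-fold higher than that floor, or 5.31-fold when the library of 61 counts was left out. The difference passed the test (edgeR adjusted p = 0.0028), but not without batch 3 (adjusted p = 0.057) or with limma on log2(TPM + 1) (0.57, adjusted p = 0.11). In 3D the counts were 4, 59 and 120 in D2A1 and 40, 50 and 252 in D2.OR, the groups overlapped, and the difference did not pass (1.08 ± 0.61, edgeR adjusted p = 0.17). Il1b, the agonist that inflammasomes process, had 0 to 10 counts per library over all groups and no count in D2A1 2D, and was not tested.

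Il18, a cytokine cut by caspase-1, was at 3.74, 3.66 and 3.24 CPM in D2A1 2D and at 6.42, 8.07 and 5.88 CPM in D2.OR 2D. The groups did not overlap, and the level was 1.92-fold higher in D2.OR (0.94 ± 0.19, edgeR adjusted p = 0.0028), although without batch 2 the difference did not pass (0.82, adjusted p = 0.067). In 3D the lines overlapped and the difference did not pass (0.19 ± 0.18, edgeR adjusted p = 0.42). Il18 overlaps Tex12 and Bco2 on the opposite strand, Il1a overlaps Gm14023, Il1rap overlaps Gm20319, Il1b overlaps Il1bos and Il1r2 overlaps Gm16894. The strandedness of the libraries was not given in the sources used here, so reads of these members and of their opposite-strand neighbors may not be told apart. Il1r1 and Il1r2 also overlap Gm38070 and Gm37347 on their own strand, where strandedness would not separate the reads.

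Il18r1, the ligand-binding chain for IL-18, was scarce in both lines. It had 2, 5 and 4 counts in D2A1 2D and 37, 34 and 45 in D2.OR 2D, and 4, 2 and 1 in D2A1 3D against 18, 20 and 27 in D2.OR 3D. The lines did not overlap, with differences of 10.4-fold in 2D (3.38 ± 0.45, edgeR adjusted p = 3.0e-04) and 9.39-fold in 3D (3.23 ± 0.48, edgeR adjusted p = 5.3e-04). The 3D log2 difference was 3.96 without D2A1 3D replicate 1 and 3.91 without batch 1. Its partner Il18rap was more abundant, at 2.10, 18.9 and 10.5 CPM in D2A1 2D and 7.09, 39.0 and 40.6 CPM in D2.OR 2D. Per length, Il18rap exceeded Il18r1 by a median of 29.2 times (8.77 to 39.6) in D2.OR 2D, so Il18r1 was the scarcer of the pair.

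Il1rap, the chain shared by the IL-1 and IL-33 receptors, was at 55.7, 37.5 and 36.7 CPM in D2A1 2D and 80.7, 148 and 186 CPM in D2.OR 2D. In 3D it was at 33.0, 43.3 and 35.0 CPM in D2A1, against 60.6, 95.7 and 139.7 CPM in D2.OR, and the lines overlapped in neither culture. The level was 2.99-fold higher in D2.OR in 2D (1.58 ± 0.34, edgeR adjusted p = 0.0041) and 2.57-fold higher in 3D (1.36 ± 0.33, edgeR adjusted p = 0.0071). Leaving out batch 2 ended both calls (adjusted p = 0.083 in 2D and 0.061 in 3D), and leaving out batch 3 ended that in 3D (adjusted p = 0.060).

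Il1r1, the signaling receptor of IL-1 alpha and beta, was the member expressed most alike in the 4 groups. It was at 19.3, 37.5 and 43.0 CPM in D2A1 2D, 21.3, 59.97 and 49.0 in D2A1 3D, 40.3, 60.3 and 42.4 in D2.OR 2D, and 62.4, 39.7 and 32.5 in D2.OR 3D. All groups overlapped, and it passed in none of the 5 comparisons (2D line difference 0.54 ± 0.39, edgeR adjusted p = 0.28, and 3D line difference 0.18 ± 0.40, adjusted p = 0.72). Without batch 1 the 3D line difference turned to -0.59 and passed (adjusted p = 0.017). Il1r2, the decoy receptor, had 0 to 9 counts per library and was not tested. In TPM the ratio of Il1rap to Il1r1 was 0.951 to 3.32 in D2A1 2D and 2.22 to 4.96 in D2.OR 2D, which overlap.

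**Figure D2:**
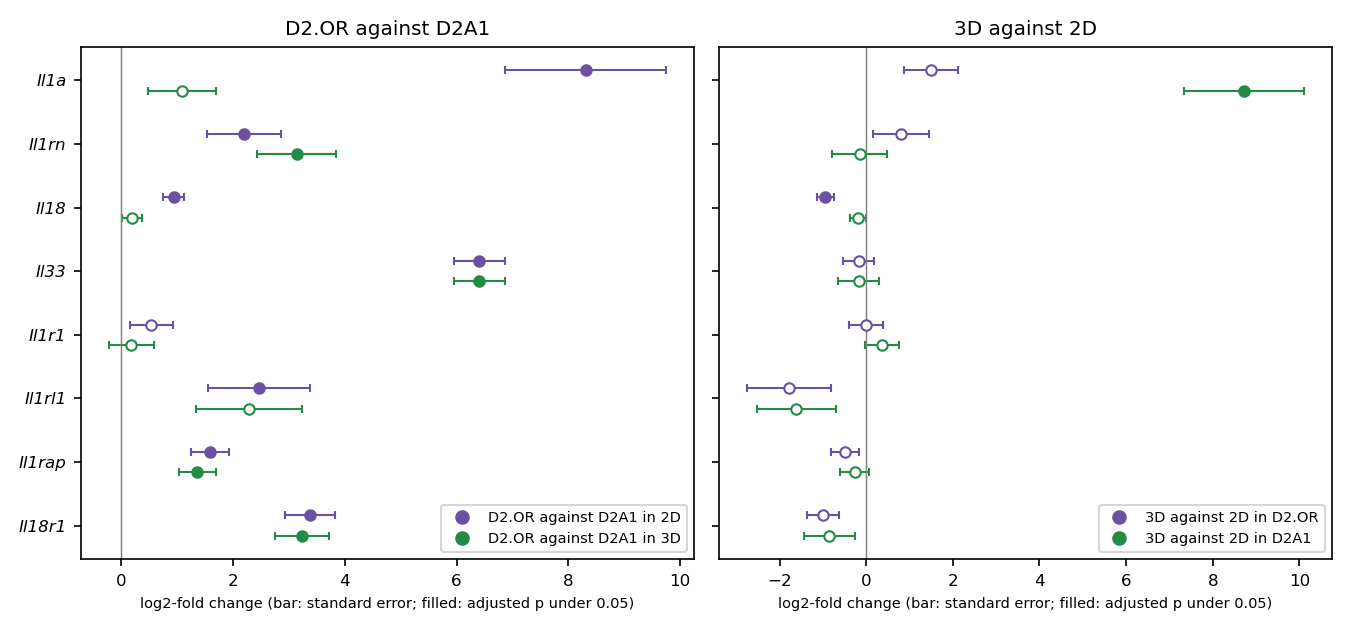
Log2-fold change of the 8 tested members (horizontal axis) between the lines in each culture (left) and between cultures in each line (right), from the fit of all 12 libraries. Bars give the standard error and filled points an adjusted p under 0.05. On the left 7 of 8 points are filled for 2D and 4 of 8 for 3D, all right of 0, and on the right 1 of 8 in each line. The 2 values of Il1a above 8 rest on a group with no reads, so their size depends on the prior count.

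The 4 receptor genes Il1r2, Il1r1, Il1rl1 and Il18r1 lie in that order on chromosome 1, on the plus strand of GRCm38, and only 136 bases separate the annotated end of Il1rl1 (40465415) from the start of Il18r1 (40465552). Il1r1 lies 112312 bases before Il1rl1. Their spans are chr1:40074079-40125231 (Il1r2), chr1:40225080-40317257 (Il1r1), chr1:40429570-40465415 (Il1rl1) and chr1:40465552-40500854 (Il18r1). Il1a (chr2:129299610-129309972) and Il1b (chr2:129364570-129371139), both on the minus strand, are 54597 bases apart, and Il1rn (chr2:24336853-24351494) lies far from them on the same chromosome. Il33 (chr19:29925114-29960718), Il18 (chr9:50554827-50581840) and Il1rap (chr16:26581704-26730117) are on the plus strand.

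To determine how the members responded to 3D culture, 3D was compared with 2D in each line. In D2.OR 1 of 8 tested members was called, Il18 lower in 3D, where 0.785% of all genes were called lower and 0.838% higher (1.62% in either direction). In D2A1 1 of 8 was called, Il1a higher in 3D, where 1.37% of all genes were called higher and 2.12% lower (3.48% in either direction). The medians over the 8 members were -0.33 in D2.OR and -0.18 in D2A1, against 0.00 over all genes. The libraries of 2D and 3D did not overlap for 2 of the 8 members in D2.OR (22.7% of all genes) and for 1 in D2A1 (26.0% of all genes). Each call was lost without the replicate block, where 0 of 8 members passed in either line.

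Il18 fell in D2.OR from 6.42, 8.07 and 5.88 CPM in 2D to 4.26, 3.43 and 2.98 CPM in 3D, with no overlap and a decrease in each batch (1.93-fold lower, log2-fold change -0.94 ± 0.19, edgeR adjusted p = 0.045). In D2A1 the levels were 3.74, 3.66 and 3.24 CPM in 2D and 4.08, 2.84 and 2.499 CPM in 3D (-0.19 ± 0.19, edgeR adjusted p = 0.50). Its antagonist Il18bp, which binds secreted IL-18, fell in D2.OR as well, from 13.7, 7.21 and 7.93 CPM to 3.51, 3.19 and 3.59 CPM (-1.41 ± 0.22, edgeR adjusted p = 0.022). This call was lost without the replicate block, without batch 2 and without batch 3. The epithelial marker sum was lower in the D2.OR libraries of 3D (475 to 838 CPM) than in those of 2D (1137 to 1906 CPM), and its part in the fall of Il18 was not tested. The change of Il18 did not differ between the lines beyond the threshold (interaction -0.75 ± 0.26, edgeR adjusted p = 0.20). The log2-fold change of Il18 lay between -1.11 and -0.79 in all 24 alternatives, and it passed in 8 of them. It did not pass without replicate 2 or 3 of D2.OR in either culture (adjusted p of 0.17 to 0.21), without D2.OR 3D replicate 1 (0.069), without replicate 2 or 3 of D2A1 in either culture (0.052 to 0.071), or without batch 2 (0.64) or batch 3 (0.42).

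Il1a rose in D2A1 from 0 counts in all 2D libraries to 4, 59 and 120 counts in 3D (0.0567, 0.911 and 1.76 CPM), a mean at least 16.8-fold higher than the floor of 3 counts per library (edgeR adjusted p = 0.036), or 8.95-fold when the library of 120 counts was left out. The batch 1 library, with 4 counts, was close to that floor. In D2.OR its levels were 0.260, 0.314 and 1.22 CPM in 2D and 0.663, 0.790 and 3.97 CPM in 3D, higher in 3D in each of the 3 batches, with overlapping groups and no call (1.49 ± 0.62, edgeR adjusted p = 0.27). The rise in D2A1 passed in 10 of 22 alternatives, and without batch 2 or 3 its adjusted p was 0.52 and 0.54. It did not pass without replicate 2 or 3 of any of the 4 groups either (adjusted p of 0.064 to 0.18).

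The other members did not pass between cultures. Il1rl1 was at 24.9 to 25.5 CPM in the D2.OR 2D libraries of batches 2 and 3 and at 1.97 to 2.77 CPM in those of 3D, while in batch 1 it was at 2.90 CPM in 2D and 6.48 CPM in 3D. The batches therefore disagreed in direction (-1.78 ± 0.97, edgeR adjusted p = 0.37), and without batch 1 the change was -3.49 (adjusted p = 0.016). In D2A1 it was -1.61 ± 0.92 (edgeR adjusted p = 0.25). In D2.OR the batches of Il33 disagreed too, with log2 differences of 1.04, -1.18 and -0.45 in batches 1, 2 and 3 and a change of -0.82 without batch 1 (adjusted p = 0.033). Il1rn (0.80 ± 0.65, edgeR adjusted p = 0.56 in D2.OR) and Il1rap (-0.49 ± 0.32, adjusted p = 0.47) did not pass either. The log2 differences of Il1rap were -0.41, -0.63 and -0.41 in batches 1, 2 and 3, and it passed in the fit of only the 6 libraries compared (-0.47, edgeR adjusted p = 0.047). Il18r1 did not pass in D2.OR although its 2D and 3D libraries did not overlap (1.996-fold lower, edgeR adjusted p = 0.20).

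For the interaction of line and culture 0 of 8 members passed, where 0.0238% of all genes did (0.0178% higher and 0.00594% lower). An unadjusted p under 0.05 was found for 2 of the 8 members and for 2997 of the 16823 tested genes. The 2 members were Il1a (edgeR unadjusted p = 0.0040, adjusted p = 0.15) and Il18 (unadjusted p = 0.018, adjusted p = 0.20). DESeq2's likelihood-ratio test called 1 member, Il1a (adjusted p = 0.0021), and edgeR called Il1a when replicate 1 of D2A1 was left out in 2D (0.042) or in 3D (0.018) and when batch 1 was left out (0.012), where Il1r1 passed too (-0.92, adjusted p = 0.036). The estimate for Il33 was 0.00, and it ranged from -0.89 to 0.60 with libraries or batches left out.

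RSEM reports for each gene a transcript length that is the mean over its isoforms, weighted by their estimated abundance. For Il1rn, whose annotated isoforms run from 321 to 2554 bases, this length was 1597 to 1713 bases in D2A1 3D and 1241 to 1312 in D2.OR 3D, with no overlap. In 2D the lines overlapped (1234 to 1680 bases in D2A1 and 1175 to 1372 in D2.OR). For Il1rl1 the isoforms with the coding sequence of the membrane receptor (1701 bases) are 5053 and 5302 bases long, and those with the shorter coding sequence of soluble ST2 (1011 bases) are 1216 and 2661 bases long. Another isoform, of 375 bases, holds a coding sequence of 195 bases. The weighted length was 2083 to 3304 bases in the 11 libraries with at least 50 counts, which allows the long isoforms at most 36.5% to 62.6% of the transcripts of the gene, depending on the library, if all other transcripts were the 375-base isoform. The least share it allows was 0% in 7 of the 11 libraries and at most 24.3%, in D2.OR 3D replicate 2, if all other transcripts were the 2661-base isoform. Since longer transcripts give more reads, these are not shares of reads. For Il33 it was 2432 to 2540 bases in the D2.OR libraries, close to the full-length isoforms of 2537 and 2544 bases. These lengths rest on RSEM's estimates and were not tested.

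**Figure D3:**
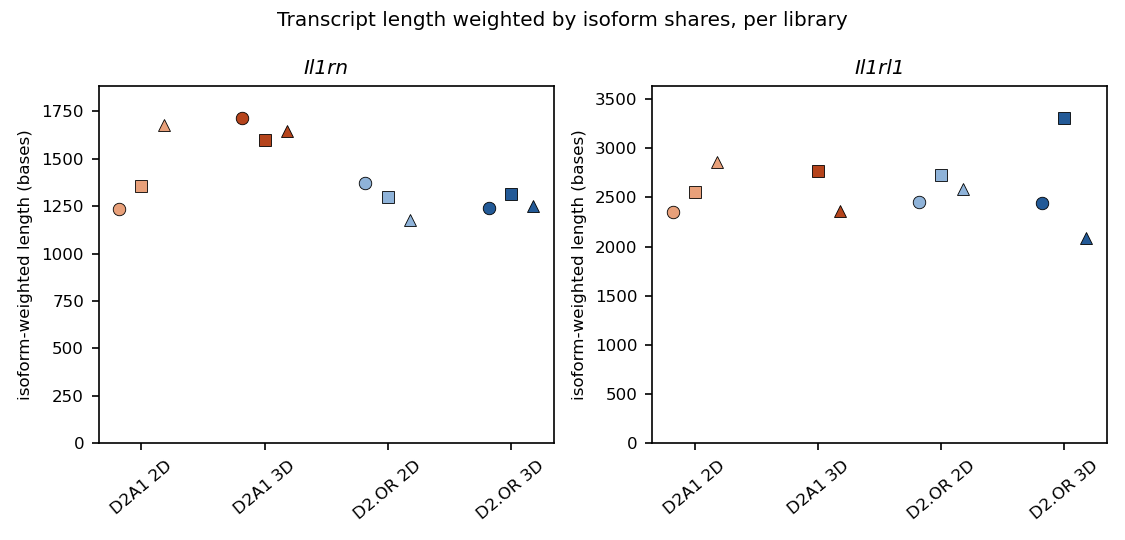
Isoform-weighted transcript length in bases (vertical axis, from 0) of Il1rn (left) and Il1rl1 (right) in each library with at least 50 counts of the gene, by group. Symbols give the batch (circle, square and triangle for 1, 2 and 3). The 3 D2A1 3D libraries of Il1rn, at 1597 to 1713 bases, lie above the 3 D2.OR 3D libraries, at 1241 to 1312.

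The remaining ligands and receptors of the family were covered by a list of 11 genes, of which 5 were tested. The genes of the IL-36 ligands and of IL-38 (Il1f5, Il1f6, Il1f8, Il1f9 and Il1f10) did not exceed 0.0772 CPM in any library and Il1rapl2 did not exceed 0.0197 CPM. In 2D 4 of the 5 were called higher in D2.OR and 1 lower, and in 3D 2 higher and 1 lower, where 25.4% of all genes were higher and 24.4% lower in 2D, and 27.7% and 26.1% in 3D. The 4 higher in 2D became 2 without batch 3 or with limma on log2(TPM + 1), and the 2 higher in 3D became 1 without batch 2, without batch 3 or with limma. The lower one was Il1rl2, the IL-36 receptor, at 3.97, 3.33 and 2.67 CPM in D2A1 2D and 0.101, 0.138 and 0.379 CPM in D2.OR 2D (-4.09 ± 0.46, edgeR adjusted p = 1.1e-04), and again lower in 3D (-4.79 ± 0.48, adjusted p = 5.4e-05). Il18bp was higher in D2.OR in 2D (1.72 ± 0.22, edgeR adjusted p = 2.5e-04), as were Sigirr, a negative regulator of the receptors (2.05 ± 0.62, adjusted p = 0.022), and Il18rap (1.51 ± 0.47, adjusted p = 0.026), which the naming rule did not pick. Il1rapl1, a synaptic receptor homolog, had no count in 6 D2A1 libraries and 7 to 16 in those of D2.OR. It passed the filter on low counts only through D2.OR, and Il1rl2 only through D2A1. Neither could be called in the other direction, and both are in the counts above.

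Of 27 receptor adaptors and kinases, all tested, 6 were called higher and 7 lower in D2.OR in 2D, and 8 higher and 7 lower in 3D, with medians of 0.02 and 0.01. Over all genes 25.4% were higher and 24.4% lower in 2D, and 27.7% and 26.1% in 3D, so these counts are near the background. Without batch 2 they were 2 and 2 in 2D and 3 and 5 in 3D, and without batch 3 they were 3 and 3 in 2D and 4 and 5 in 3D. Irak3, called lower in both cultures, did not exceed 0.0497 CPM in any D2.OR library. It passed the filter on low counts only through D2A1. The differences with the smallest p in 2D went in both directions. Ube2n, a ubiquitin-conjugating enzyme that serves TRAF6, was at 86.7 ± 10.8 CPM in D2A1 2D and 206 ± 18.4 CPM in D2.OR 2D (SD, n = 3, 1.25 ± 0.10 SE, edgeR adjusted p = 1.3e-05). Ikbkb, the IKK-beta kinase that acts on the NF-kB inhibitors, was higher too (0.75 ± 0.07, adjusted p = 4.8e-05). The ubiquitin ligase gene Peli2 was at 38.7 ± 10.2 CPM in D2A1 2D and 0.792 ± 0.006 CPM in D2.OR 2D (-5.60 ± 0.43, edgeR adjusted p = 1.3e-05), and Mapk9, the JNK2 kinase, was lower as well (-0.64 ± 0.08, adjusted p = 1.5e-04). Between cultures 0 of 27 passed in D2.OR and 1 in D2A1, where Tollip, an adaptor that restrains IRAK1, fell (-0.39 ± 0.09, edgeR adjusted p = 0.049). Over all genes 1.62% were called in D2.OR and 3.48% in D2A1. The count in D2A1 was 0 without the replicate block, without batch 2 or without batch 3, and 3 higher and 5 lower without batch 1. DESeq2 called 1 higher and 5 lower in D2A1 and 3 lower in D2.OR, where 2 were lower without batch 1.

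Among 29 genes of inflammasomes, cytokine processing and release, 23 were tested and 13 were called higher and 4 lower in D2.OR in 2D (median 0.97), with 12 higher and 4 lower in 3D (median 0.53). The shares over all genes were 25.4% higher and 24.4% lower in 2D, and 27.7% and 26.1% in 3D. Without batch 2 the counts in 3D were 8 and 1. Among those called higher, Aim2, Mefv and Gzmb did not exceed 0.0703, 0.0154 and 0.0294 CPM in any D2A1 library. They passed the filter on low counts only through D2.OR and could not be called lower there. Gsdmd, the pore protein through which IL-1 family cytokines leave cells, was at 7.65 ± 1.21 CPM in D2A1 2D and 32.9 ± 1.84 CPM in D2.OR 2D (SD, n = 3, 2.11 ± 0.14 SE, edgeR adjusted p = 6.1e-06). Casp8, an apoptotic caspase that can also cut pro-IL-1 beta, was higher (1.80 ± 0.15, adjusted p = 1.8e-05), as were Capn2, a calpain subunit of the kind that cuts pro-IL-1 alpha (1.04 ± 0.10, adjusted p = 4.4e-05), and the DNA sensor gene Aim2 (5.32 ± 0.53, adjusted p = 5.6e-05). Aim2 had 0, 2 and 4 counts in D2A1 2D and was at 1.24 to 1.61 CPM in D2.OR 2D. The size of its difference thus rests on a group near the floor. Pycard, the adaptor that joins most sensors to caspase-1, did not exceed 0.216 CPM in any library and was not tested. Between cultures 1 of 23 passed in each line, Dfna5, a gasdermin, which rose in D2.OR (1.04 ± 0.19, edgeR adjusted p = 0.038), and Naip2, a sensor of bacterial secretion, which fell in D2A1 (-0.68 ± 0.15, adjusted p = 0.049). Over all genes 1.62% were called in D2.OR and 3.48% in D2A1. Both counts were 0 without the replicate block, without batch 2 or without batch 3. DESeq2 called 1 higher and 6 lower in D2.OR and 1 higher and 5 lower in D2A1, and without batch 1 the counts were 1 and 4 in D2.OR and 2 and 7 in D2A1.

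Of 30 genes commonly induced by IL-1, 29 were tested, and NF-kB stimuli other than IL-1 induce many of them too. In 2D 15 were called higher and 5 lower in D2.OR (median 1.37), where 25.4% of all genes were higher and 24.4% lower. In 3D 9 were higher and 9 lower (median 0.14), where 27.7% and 26.1% of all genes were. In 2D the counts were 17 and 7 without batch 1, 14 and 1 without batch 2, and 13 and 2 without batch 3. In 3D they were 10 and 14 without batch 1, 7 and 2 without batch 2, and 5 and 4 without batch 3. In D2.OR 2D Rnd1 reached 24.3 ± 1.37 CPM against 3.65 ± 0.334 in D2A1 2D (SD, n = 3, 2.73 ± 0.13 SE, edgeR adjusted p = 8.5e-07). Icam1, an adhesion molecule for leukocytes (4.03 ± 0.43, adjusted p = 9.4e-05), Zc3h12a, a ribonuclease that degrades cytokine mRNA (2.89 ± 0.34, adjusted p = 1.6e-04), and Birc3, an inhibitor of apoptosis (1.62 ± 0.19, adjusted p = 1.7e-04), were higher as well. Icam1 had 6, 2 and 1 counts in D2A1 2D and was at 0.637 to 1.17 CPM in D2.OR 2D. It passed the filter on low counts only through D2.OR, and the size of its difference rests on a group near the floor.

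In D2A1 11 of the 29 rose in 3D and 0 fell (median 1.26), where 1.37% of all genes rose. Zc3h12a went from 9.69, 5.97 and 7.65 CPM to 18.0, 45.9 and 39.1 CPM (2.14 ± 0.34, edgeR adjusted p = 0.028), and the neutrophil chemokine gene Cxcl1 from 7.12, 20.9 and 12.6 CPM to 22.6, 363 and 298 CPM (3.75 ± 0.63, adjusted p = 0.033). Il6 and Csf3, chosen after their values were seen, rose as well, with overlapping groups (edgeR adjusted p = 0.033 and 0.044). The batch 1 library stood apart, with 0.284 CPM of Il6 and 0.383 CPM of Csf3 in D2A1 3D against 34.9 and 77.7 CPM in batch 2. The count of 11 became 1 without the replicate block, 20 without batch 1 and 0 without batch 2 or batch 3, and DESeq2 called 15.

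In D2.OR 1 of the 29 rose in 3D and 0 fell (median 0.17), namely Lcn2, an iron-binding acute-phase protein whose groups overlapped (1.76 ± 0.35, edgeR adjusted p = 0.045), where 0.838% of all genes rose and 0.785% fell. None rose without the replicate block, without batch 2 or without batch 3, 3 rose and 4 fell without batch 1, and DESeq2 called 1 higher and 3 lower. For the interaction 0 of 29 passed (median -1.19, against -0.01 over all genes), where 0.0238% of all genes did. DESeq2 called 8 genes whose change from 2D to 3D was lower in D2.OR than in D2A1, and without batch 1 edgeR called 17 such genes. The 12 leukocyte markers summed to 19.0 to 55.5 CPM in D2A1 2D and 32.1 to 178 CPM in D2A1 3D. The mean of Cd14 was 28.2 CPM in D2A1 2D and 113.7 CPM in 3D, that of Csf1r 0.0469 and 0.634 CPM, that of Cd68 11 and 4.62 CPM and that of S100a8 3.55 and 4.16 CPM. Their part in the rise was not tested.

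**Figure D4:**
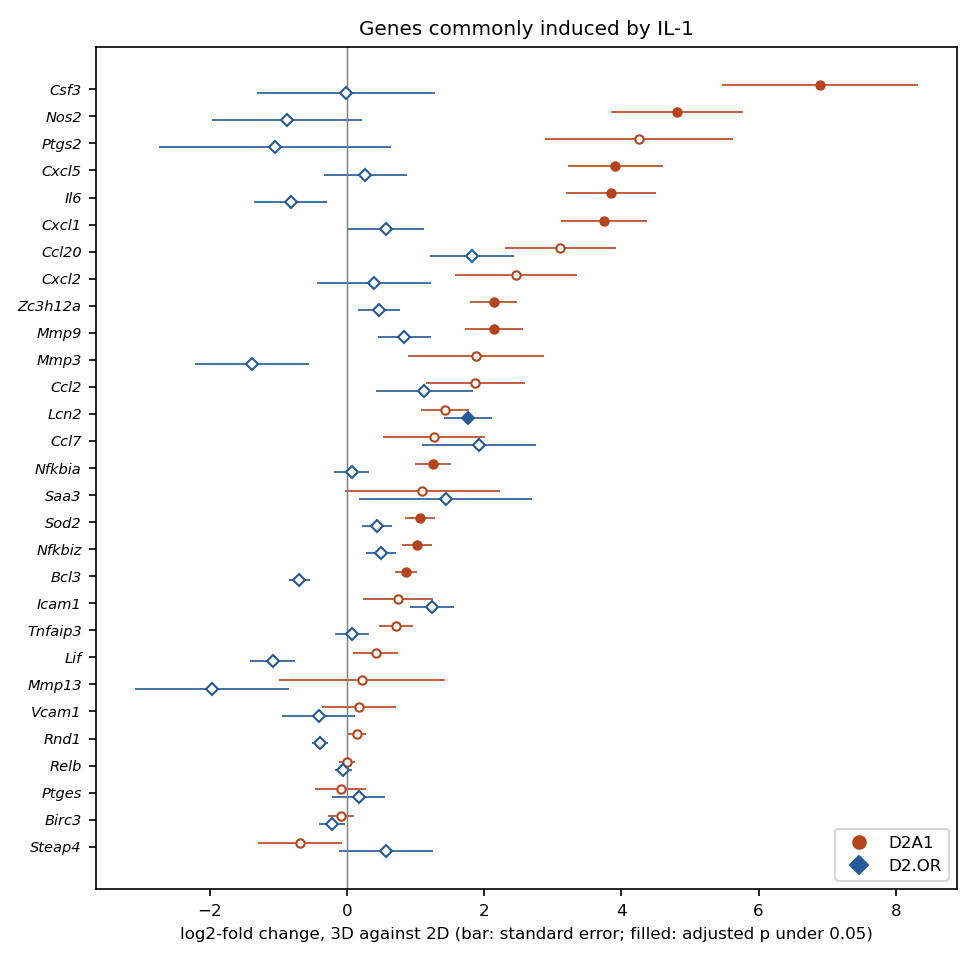
Log2-fold change from 2D to 3D (horizontal axis, with standard errors) of the 29 tested genes commonly induced by IL-1, in D2A1 (circles) and D2.OR (diamonds). Filled symbols have an adjusted p under 0.05, which holds for 11 genes in D2A1 and 1 in D2.OR.

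For each member with at least 5 CPM in a group, the 3 genes with the most similar pattern were sought by the root mean square difference of centered log2 CPM over the 12 libraries. The nearest gene to Il33 was Serpinf1 (0.36), at a mean of 1.097 CPM in D2A1 2D and 85.1 CPM in D2.OR 2D, followed by Prss23os and Ust (0.49 each). Il1rap was nearest to Cd276 (0.20), Man2a1 (0.27) and Ece1 (0.29), Il18 to Glis2 (0.18), Adamts6 (0.20) and Mgat4a (0.22), and Il1r1 to Tmeff1 (0.31), Igsf3 (0.32) and Pim1 (0.33). Il1rn had Plpp3 (0.53), Gdf15 and Col12a1 (0.67 each) as its nearest genes. No gene followed Il1rl1 as closely, its nearest being Sema6a (0.87), 0610040J01Rik (0.90) and Medag (0.91). Since the 12 libraries share lines, cultures and batches, these distances describe likeness of pattern in these libraries and nothing else.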

How the data were processed

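RNA from 12 samples was sequenced (2 cell lines, 2 cultures, 3 replicates each). Per the labels and the study's methods, reads were checked with FastQC 0.11.4, trimmed with Trimmomatic 0.32, aligned with STAR 2.5.3 to GRCm38 and quantified with RSEM 1.3.0. The authors deposited RSEM expected counts for every gene, without normalization, and RSEM TPM, which is scaled for transcript length and sequencing depth. The weighted transcript length deposited beside them was used too, and their FPKM values were not. RSEM had shared out reads that fit several genes, so 10.7% to 11.8% of the genes in a library had counts that were not whole, and they were rounded here.

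Differences were tested with edgeR 4.0.16 (quasi-likelihood test, R 4.3.3) over the 12 libraries together, using TMM scaling and filterByExpr, which left 16823 of 52550 genes. The design held the 4 groups and the batch as a replicate block. The Benjamini-Hochberg adjustment ran across those genes, and an adjusted p under 0.05 was called. Standard errors of edgeR values were taken as the size of the log2-fold change divided by the square root of the test's F. They are unreliable where the change is near 0. The labels give the replicate number as the batch, which is where the pairing comes from. Deviations from group means correlated at 0.076 to 0.51 (median 0.27) in 18 pairs of libraries sharing a number. For the 36 pairs with unlike numbers the range was -0.43 to 0.30 (median -0.19), which overlaps it. Replicates varied with a biological coefficient of variation of 21.2%, estimated in common for all genes. The floor for a library without reads of a gene was set at 3 counts, which covers counting error alone.

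The fit was first tested on simulated data. Alternatives were no replicate block, DESeq2 1.42.0, limma 3.58.1 on log2(TPM + 1) and log2(TPM + 0.1), DESeq2 size factors or library totals for scaling, no filter, a minimum of 10 counts in all libraries, a fit of the 6 libraries compared, and leaving out each library or batch. Those for the gene lists, and the Il1a bounds with a library left out, were chosen after seeing the data.

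The members, gene lists and markers were chosen with earlier results of these data known. Named genes were all members, from each list the 4 with the lowest p between the lines in 2D and up to 2 of those called in each comparison of cultures and in the interaction, and the 3 genes nearest in pattern to a member with a mean of at least 5 CPM in a group. Promoter sequences are from RefSeq (GRCm38.p6), and gene and isoform positions from a GENCODE annotation of GRCm38.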

Additional observations from a re-analysis of the deposited data

How the results depend on the processing

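Of 940 recalculated log2-fold changes of single members, 821 kept their direction and side of the threshold, 55 lost the call, 10 gained one and 54 changed sign. The calls for Il33 and Il18r1 between the lines, and for Il1rn in 3D, held under all alternatives in which they were tested, although the number of members called moved with the setting. Without the replicate block 5 members were called in the 2D line comparison, 4 in the 3D line comparison and 0 in 3D against 2D in either line, where the main counts were 7, 4, 1 and 1. In 3D against 2D in D2.OR, 0 members were called with library totals alone or with limma on log2(TPM + 1) or log2(TPM + 0.1), and 2 with only the 6 libraries compared (Il1a and Il1rap). In 3D against 2D in D2A1, 0 were called with at least 10 counts in every library or with only the 6 libraries compared, where Il1a was not tested, and 0 with limma on log2(TPM + 1), where its adjusted p was 0.10. The added pseudocount lowers the folds of scarce genes, and limma on log2(TPM + 1) gave 4.43 (2D) and 4.38 (3D) for Il33 and 0.43 and 0.20 for Il18r1 between the lines. DESeq2 called 1 in the interaction, where the main count was 0. The cause of these shifts was not tested.

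With 1 library or batch left out, the members called ranged from 3 to 7 (2D line comparison, 3 without batch 2 and 4 without batch 3), from 3 to 5 (3D line comparison), from 0 to 3 (3D against 2D in D2.OR), from 0 to 1 (in D2A1) and from 0 to 2 (interaction). The members whose sign turned had not been called in those comparisons, and 1 turned value passed, that of Il1r1 in the 3D line comparison without batch 1 (-0.59, edgeR adjusted p = 0.017). With other scalings or tests, Il1r1 in 3D against 2D in D2.OR was 0.00 (DESeq2 size factors, and DESeq2), 0.07 (library totals) and 0.02 (at least 10 counts), where the main value was below 0 by less than 0.01. The interaction of Il33 was 0.02 (DESeq2 size factors), 0.06 (library totals), 0.16 (limma on log2(TPM + 0.1)) and 0.05 (DESeq2). With libraries left out, Il1r1 ranged from -0.59 to 0.57 in the 3D line comparison and from -0.72 to 0.30 in 3D against 2D in D2.OR. In that culture comparison Il1rn ranged from -0.57 to 1.32 and Il33 from -0.82 to 0.35. In D2A1 the ranges were -0.56 to 0.25 for Il1rn, -0.40 to 0.08 for Il33 and -0.53 to 0.26 for Il1rap. In the interaction they were -0.44 to 1.46 for Il1rn, -0.89 to 0.60 for Il33, -1.05 to 0.09 for Il1r1, -1.77 to 1.54 for Il1rl1, -0.75 to 0.08 for Il1rap and -0.64 to 0.59 for Il18r1. Il1b and Il1r2, with at most 10 counts per library, are below what this depth can compare.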
